A study of Rattus norvegicus with 6 samples.

Results

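Toll-like receptors (TLRs), their co-receptors and the first proteins that carry their signal inside the cell were examined in brain macrophages sorted after stroke. The set held 10 genes, chosen by symbol. They were the receptors *Tlr2*, *Tlr4* and *Tlr7*, the co-receptors *Cd14* and *Ly96*, the adaptors *Myd88* and *Ticam1*, the kinases *Irak1* and *Ripk2*, and *Irak3*, which restrains the pathway. The rule for the set used no measured value, although earlier results of these data were known when it was drawn up. The array annotation named 14217 genes through probe sets assigned to a single gene. All 10 genes were among them, through 12 probe sets, and all 10 passed the low-signal filter that left 9928 genes for testing.

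Each array measured RNA from CD11b+CD163+ cells, the perivascular and meningeal macrophages (PV) of the labels, also called border-associated macrophages. The ischemia group comprised rats 64, 65 and 66, in which the right middle cerebral artery had been occluded for 1 h and reperfused for 16 h. The control group comprised the non-ischemic rats 63, 68 and 69. All 6 were adult male Sprague-Dawley rats, 1 rat per array, and the cells came from the right hemisphere. A rise in such a bulk sample cannot distinguish more RNA per cell from more cells of a type that carries the RNA.

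TLRs are innate immune sensors that bind microbial molecules and products released by damaged tissue. TLR2 acts at the cell surface together with a partner receptor, TLR4 recognizes lipopolysaccharide once CD14 has passed it to the complex of TLR4 with MD-2 (encoded by *Ly96*), and TLR7 reads single-stranded RNA in endosomes. Signal passes through the adaptor MyD88 to the IRAK kinases and NF-kB, or from TLR4 through the adaptor TRIF (encoded by *Ticam1*) towards interferon genes. In the brain these receptors are carried mainly by microglia and macrophages.

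Values are log2 intensities from RMA (robust multi-array average), so that a difference of 1 is a doubling. Fold changes are ischemia minus control, with their standard error (SE), from limma. The words rose and fell are kept for genes whose p, after Benjamini-Hochberg correction across the 9928 genes, was under 0.01. Levels of different genes are not compared, since probe sets differ in brightness.

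The sorted cells carried their defining transcripts. *Cd163* was at 14.11, 14.02 and 13.38 in ischemic rats 64, 65 and 66 and at 12.63, 13.86 and 13.41 in control rats 63, 68 and 69. None of 10 tested markers of border-associated macrophages passed the test in either direction, and their median log2 fold change was -0.66 against 0.10 over all genes. With ribosomal centring 6 of the 10 fell (*Csf1r*, *F13a1*, *Folr2*, *Ms4a7*, *Pf4* and *Stab1*), beside 1360 of all 9876 genes tested in that setting. With array weights 5 fell, beside 1309 of all 9928 genes. Transcripts listed as markers of other cells also moved with ischemia. Of 10 tested monocyte markers 7 rose, beside 16.8% of all genes tested. Their summed level was 15.89 to 16.39 after ischemia and 14.77 to 15.21 in controls. *Vcan* and *Fn1*, both among the 7, are listed by the paper with the genes most raised in the CD163+ cells. Which cells carried these transcripts was not tested. Of 6 tested granulocyte markers 3 rose (summed level 10.84 to 11.998 after ischemia and 9.93 to 10.30 in controls). *S100a9* (2.19, adjusted p = 0.0119 from limma) and *Csf3r* (0.93, adjusted p = 0.0113) were higher in every ischemic rat but did not pass. *Cxcr2* was at -0.50 (adjusted p = 0.179), with overlap. *Camp* and *Mmp8*, proteins of mature neutrophil granules, were too dim to test. *Camp* was higher in every ischemic rat and *Mmp8* overlapped. The 3 that rose (*S100a8*, *Lcn2* and *Mmp9*) were below the low-signal limit of 7.16 in every control, so that they entered the test through the ischemic arrays alone, as did the monocyte marker *Vcan*. Without that filter 2 of 8 granulocyte markers rose, and with the filter at the 60th percentile 1 was left, which did not. The paper's purity check found some granulocytes among CD163+ cells sorted from ischemic brain. In 6 tested microglia markers 1 fell and none rose (13.48 to 14.30 after ischemia and 13.89 to 14.05 in controls). Lymphocyte markers had a summed level of 10.20 to 10.98 after ischemia and 9.62 to 9.71 in controls. Among 3 tested there was 1 rise and 1 fall, and *Cd3e* and *Ms4a1* were too dim. The marker that fell, *Cd5*, was below the low-signal limit in every ischemic rat, so it entered the test through the control arrays alone. Of 4 tested endothelial markers none passed the test (10.99 to 11.31 after ischemia and 10.90 to 12.87 in controls). Control 63 stood apart, with a highest value of 13.85 against 14.88 to 14.96 on the other arrays and with *Cldn5*, a tight-junction protein of endothelial cells, at 10.52 against 6.09 and 7.03 in the other controls. The 3′ minus 5′ difference of actin probe sets was 0.17 to 0.24 after ischemia and 0.058 to 0.073 in controls, and that of GAPDH was 0.75 to 0.80 after ischemia and 0.52 to 0.65 in controls. The part of these differences in the results below was not tested, except where values without control 63 are given.

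Ischemia raised 3 of the 10 genes, *Ripk2*, *Cd14* and *Irak1*, and lowered none at the threshold. Over all 9928 genes 16.8% rose and 5.99% fell, 22.8% in either direction, so that the share of 3 in 10 is not read as particular to this family. The median log2 fold change of the 10 genes was 0.14, beside 0.10 over all genes tested. None of the 10 met the study's stricter call, which also asks for a log2 fold change beyond 2. Of all genes tested, 1.63% met it upwards and 0.584% downwards. The study printed far larger counts for that call than the 162 genes up and 58 down found here. Its counts were closer to the 1664 up and 595 down at an adjusted p under 0.01 alone. The reason was not tested. Without control 63, 3 of the 10 rose and none fell, beside 10.1% and 3.82% of all genes in that setting.

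**Figure D1:**
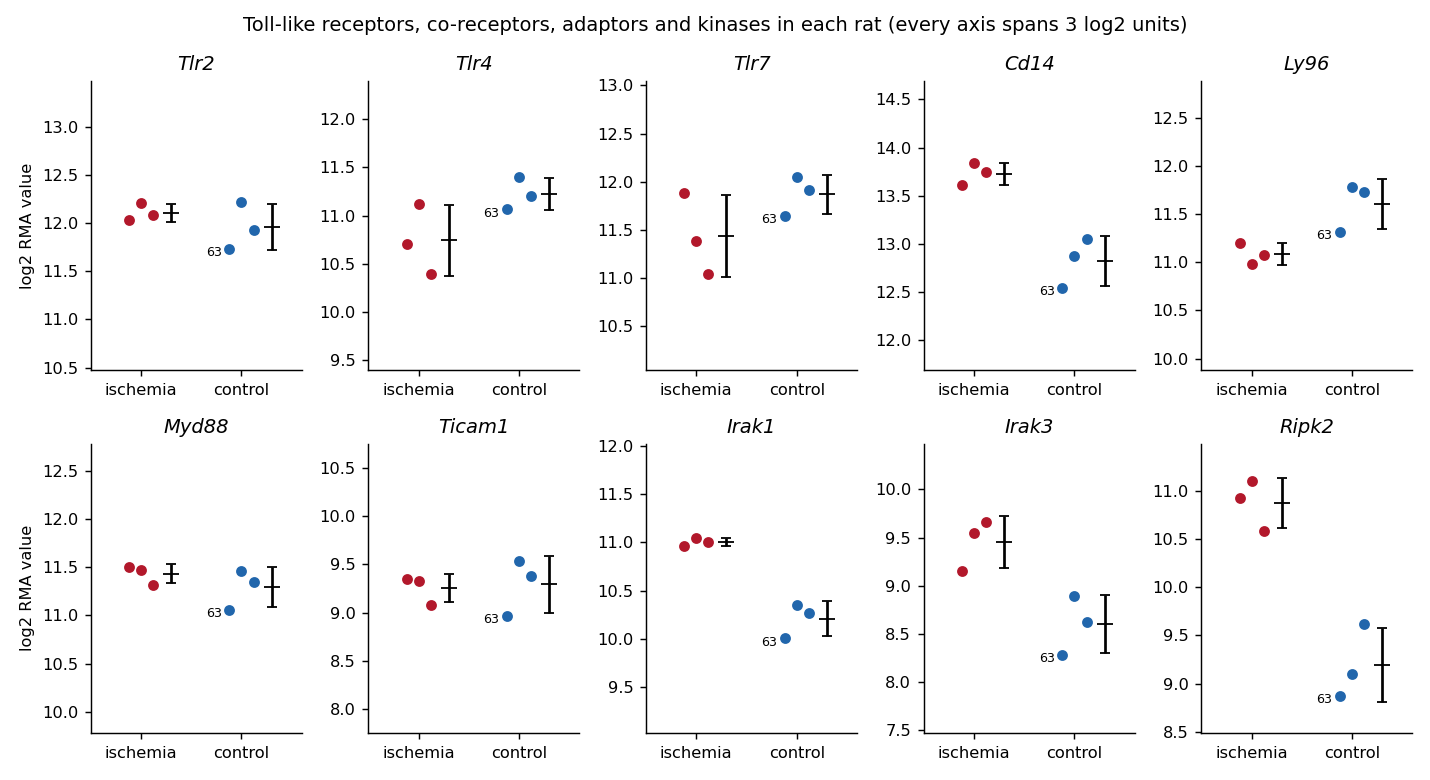
Log2 RMA values (vertical axes, each spanning 3 log2 units) of the 10 genes in 3 ischemic rats (red) and 3 control rats (blue). Points are rats, with control 63 marked, and bars give the mean and SD (n = 3). *Cd14*, *Irak1*, *Irak3* and *Ripk2* lie higher in every ischemic rat than in any control, *Ly96* lies lower, and the other 5 genes overlap.

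Among the receptors, *Tlr2* differed by less than its replicate spread. This receptor for bacterial lipoproteins was at 12.03, 12.21 and 12.08 in ischemic rats 64, 65 and 66, against 11.73, 12.21 and 11.93 in controls 63, 68 and 69. The 3 ischemic values lay within the range of the controls. Its log2 fold change was 0.15 (SE 0.15, 95% interval -0.21 to 0.50, adjusted p = 0.471 from limma).

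*Tlr4*, the lipopolysaccharide receptor, was at 10.71, 11.12 and 10.39 after ischemia and at 11.07, 11.40 and 11.21 in controls. Ischemic rat 65 reached the controls and rats 64 and 66 lay below them. The log2 fold change was -0.48 (SE 0.20, 95% interval -0.94 to -0.024), which did not pass the test (adjusted p = 0.0856 from limma).

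*Tlr7*, the endosomal sensor of single-stranded RNA, was at 11.89, 11.39 and 11.04 after ischemia and at 11.65, 12.05 and 11.91 in controls. Ischemic rat 64 was among the controls and the other 2 ischemic rats were below them. The spread was 0.42 (SD, n = 3) after ischemia and 0.20 in controls, and the log2 fold change of -0.43 (SE 0.22) had an adjusted p of 0.156 from limma.

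The other TLRs that could be analysed were *Tlr1* and *Tlr8*. *Tlr1*, which pairs with TLR2 on lipoproteins, was at 11.77, 11.25 and 11.24 after ischemia and at 10.09, 9.82 and 9.13 in controls. Every ischemic rat was above every control, and *Tlr1* rose by 1.74 (SE 0.26, adjusted p = 0.0019 from limma). *Tlr8*, an endosomal RNA sensor related to TLR7, was at 11.60, 11.03 and 10.70 after ischemia and at 11.71, 12.10 and 11.89 in controls, without overlap. Its log2 fold change of -0.79 (SE 0.23) did not pass the test (adjusted p = 0.027). Thus the cell-surface receptor *Tlr1* was the one of the 5 receptors measured that passed the test.

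*Cd14*, the co-receptor that hands lipopolysaccharide to TLR4, was at 13.61, 13.84 and 13.75 after ischemia and at 12.55, 12.87 and 13.06 in controls. The lowest ischemic rat lay 0.55 log2 units above the highest control. *Cd14* rose by 0.91 (SE 0.16, adjusted p = 0.00366 from limma), a 1.87-fold difference. Without control 63 the rise was 0.77 (adjusted p = 0.00875). The call ended without control 68, ischemia 65 or ischemia 66 (adjusted p = 0.0127, 0.0196 and 0.0146) and with arrays centred on ribosomal protein genes (0.48, adjusted p = 0.0953). *Cd14* is also a monocyte transcript, and 7 of the 10 tested monocyte markers given above rose, *Vcan* and *Fn1* among them. Their relation to the rise of *Cd14* was not tested.

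*Ly96*, which encodes the MD-2 subunit of the lipopolysaccharide receptor, was at 11.20, 10.98 and 11.07 after ischemia and at 11.31, 11.78 and 11.72 in controls. All ischemic rats lay below all controls, although control 63 was 0.11 above ischemic rat 64. The log2 fold change of -0.52 (SE 0.16) did not pass the test (adjusted p = 0.0323 from limma). It passed when the arrays were centred on ribosomal protein genes (-0.95, adjusted p = 0.00424), when quantile normalization was repeated (-0.67, adjusted p = 0.00563) and with array weights (-0.66, adjusted p = 0.00269). With each rat left out in turn it ranged from -0.67 to -0.43 and did not pass (adjusted p = 0.0107 to 0.117).

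The adaptors differed by less than their replicate spread. *Myd88*, used by every TLR measured here, was at 11.50, 11.47 and 11.32 after ischemia and at 11.06, 11.47 and 11.35 in controls. The log2 fold change was 0.14 (SE 0.15, 95% interval -0.20 to 0.48, adjusted p = 0.474 from limma). *Ticam1* was read by a pair of probe sets. The brighter was at 9.35, 9.33 and 9.08 after ischemia and at 8.97, 9.54 and 9.38 in controls (-0.040 on the log2 scale, SE 0.17, limma adjusted p = 0.872). In a fit over 14083 probe sets, the dimmer *Ticam1* probe set was at -0.083 (SE 0.15, adjusted p = 0.697). With either probe set the groups overlapped.

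*Irak1*, the kinase recruited to MyD88 by activated receptors, was at 10.96, 11.04 and 11.01 after ischemia and at 10.004, 10.35 and 10.27 in controls. The ischemic rats were close together (SD 0.041, n = 3) and all above the controls (SD 0.18, n = 3). *Irak1* rose by 0.80 (SE 0.14, adjusted p = 0.00319 from limma), or 1.74-fold. A second, dimmer probe set of *Irak1* was at 10.39, 10.52 and 10.59 after ischemia and at 9.42, 10.13 and 9.95 in controls. It did not overlap between groups either, but its difference of 0.67 (SE 0.19) did not pass the probe-set test (adjusted p = 0.0259). In that test 3 of the 12 probe sets of the family rose and none fell, beside 15% and 6.06% of all probe sets. The *Irak1* call ended without control 69, ischemia 65 or ischemia 66 (adjusted p = 0.0101, 0.0185 and 0.0136) and with ribosomal centring (0.37, adjusted p = 0.2). Without control 63 the rise was 0.69 (adjusted p = 0.00741).

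*Irak3*, a kinase-dead relative of *Irak1* that dampens TLR signalling, was at 9.15, 9.54 and 9.66 after ischemia and at 8.29, 8.90 and 8.63 in controls. Ischemic rat 64 and control 68 were the nearest, 0.25 apart, and the groups did not overlap. The log2 fold change of 0.85 (SE 0.20) was similar in size to that of *Irak1* but missed the threshold (adjusted p = 0.0116 from limma). It passed without ischemia 64 (0.999, adjusted p = 0.00634), with array weights (0.88, adjusted p = 0.0017) and with arrays centred on their medians (adjusted p = 0.00954). It also passed with a low-signal filter at the 60th percentile (adjusted p = 0.00768) or a low-variability filter (adjusted p = 0.00984). With each rat left out in turn it ranged from 0.69 to 0.999 (adjusted p = 0.00634 to 0.0449). Ribosomal centring gave 0.42 (adjusted p = 0.159).

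*Ripk2*, the kinase that relays signals of the intracellular sensors NOD1 and NOD2 to NF-kB, had the largest log2 fold change of the 10 genes. It was at 10.93, 11.11 and 10.59 after ischemia and at 8.87, 9.10 and 9.62 in controls. The lowest ischemic rat lay 0.97 log2 units above the highest control. *Ripk2* rose by 1.68 (SE 0.22, 95% interval 1.17 to 2.18, adjusted p = 0.00117 from limma), or 3.20-fold. The call held without each rat in turn (1.52 to 1.89, adjusted p = 0.00185 to 0.00702), with ribosomal centring (1.25, adjusted p = 0.00113) and under every other setting run except that without moderation of the variances (adjusted p = 0.0269). Over the 6 arrays, the profiles closest to that of *Ripk2* were those of *Wdhd1*, *Hivep2* and *Acsl4*, with root mean square differences of 0.17, 0.19 and 0.19 after subtracting each gene's own mean. These profiles share the same 6 arrays and the same group difference.

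**Figure D2:**
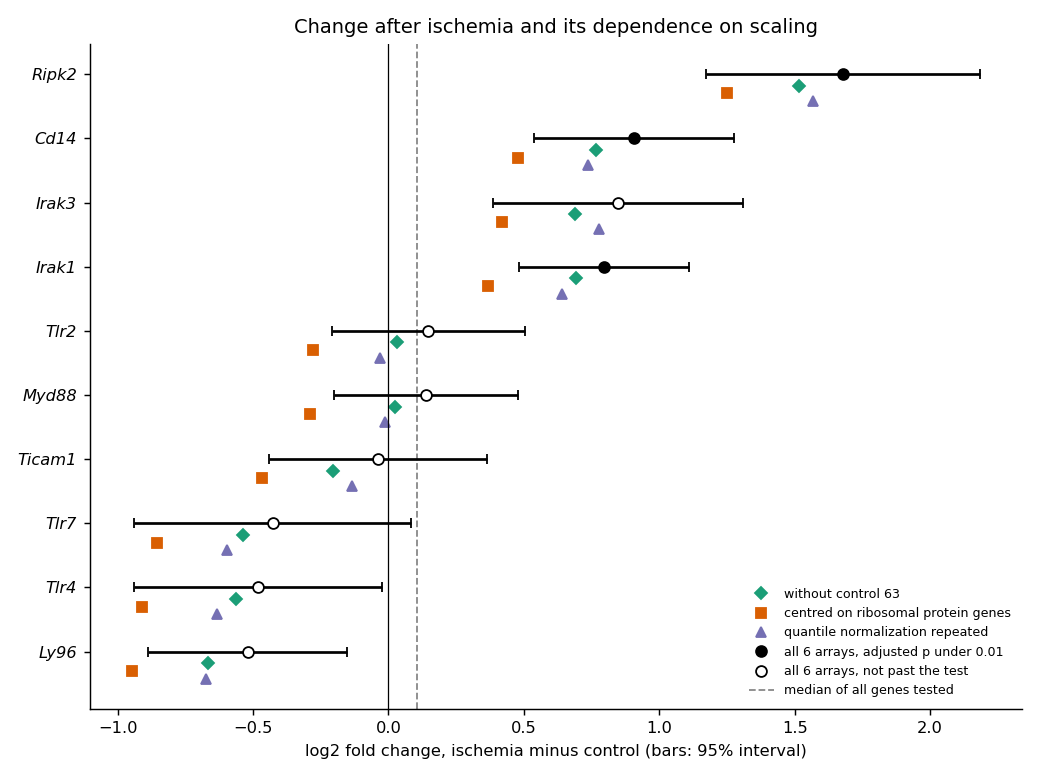
Log2 fold changes of the 10 genes, ischemia minus control (horizontal axis), with 95% intervals over all 6 arrays (black) and with the values without control 63, after centring on ribosomal protein genes and after repeated quantile normalization. *Ripk2* (1.68) stays above 1 under all 3 alternatives, whereas *Tlr2* and *Myd88* lie at 0.15 and 0.14 and change sign under both rescalings.

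Across the family, the groups did not overlap for 4 genes that were higher after ischemia and for *Ly96*, which was lower. Of all genes tested, 35.7% were higher and 19.9% lower without overlap, so a family of 10 with 5 such genes is close to the background of 55.6%. Control 63 was the lowest of the 3 controls for all 10 genes, beside 59.8% of all genes tested. Leaving this rat out therefore lowered each of the 10 fold changes, which follows by arithmetic and is not a further result.

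A shift common to all genes of an array cancels in the difference between a pair of genes on that array. Scaling that depends on intensity does not fully cancel. Repeating quantile normalization changed the group difference of *Cd14* minus *Tlr4* from 1.39 to 1.37 and of *Irak3* minus *Irak1* from 0.052 to 0.14. Differences within arrays were computed for 7 pairs of partner proteins, chosen after the values above were seen. Only their change between groups is informative, because the level of a difference also depends on the brightness of the probe sets. *Cd14* minus *Tlr4* was 2.90, 2.71 and 3.36 in ischemic rats 64, 65 and 66, against 1.48, 1.47 and 1.85 in controls 63, 68 and 69. The co-receptor thus gained 1.39 log2 units on its receptor, with no overlap between groups. *Ly96* minus *Tlr4* was 0.34 ± 0.43 after ischemia and 0.38 ± 0.13 in controls (SD, n = 3 each), and these groups overlapped.

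*Irak1* minus *Myd88* was -0.54, -0.43 and -0.31 after ischemia and -1.06, -1.11 and -1.08 in controls. The 3 controls, including control 63, lay within 0.057 of each other, and the kinase gained 0.66 on the adaptor. *Ticam1* minus *Myd88* was -2.18 ± 0.049 after ischemia and -1.998 ± 0.085 in controls (SD, n = 3 each), a small shift of -0.18. *Irak3* minus *Irak1* differed by 0.052 between groups, which overlapped.

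*Tlr1* gained 1.59 on *Tlr2* and *Ripk2* gained 2.26 on *Nod1*, the receptor upstream of it. *Ripk2* minus *Nod1* was 0.51, 1.09 and 0.68 after ischemia and -1.45, -1.70 and -1.34 in controls. The exact permutation test gave p = 0.1 (two-sided, adjusted 0.14 over the 7 pairs) for each of the 5 pairs whose groups did not overlap, which is the smallest p that 3 rats against 3 can give. For *Ly96* minus *Tlr4* and *Irak3* minus *Irak1* the exact permutation test gave p = 0.9 and 0.8 (adjusted 0.9 for both). As the pairs were chosen after the values were seen, these tests give no independent support. *Cd14*, *Tlr1*, *Irak1* and *Ripk2* had already passed the test as single genes. The share of all gene pairs without overlap was not computed. Without control 63 the gains were 1.33 for *Cd14*, 0.67 for *Irak1*, 1.91 for *Tlr1* and 2.28 for *Ripk2*.

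**Figure D3:**
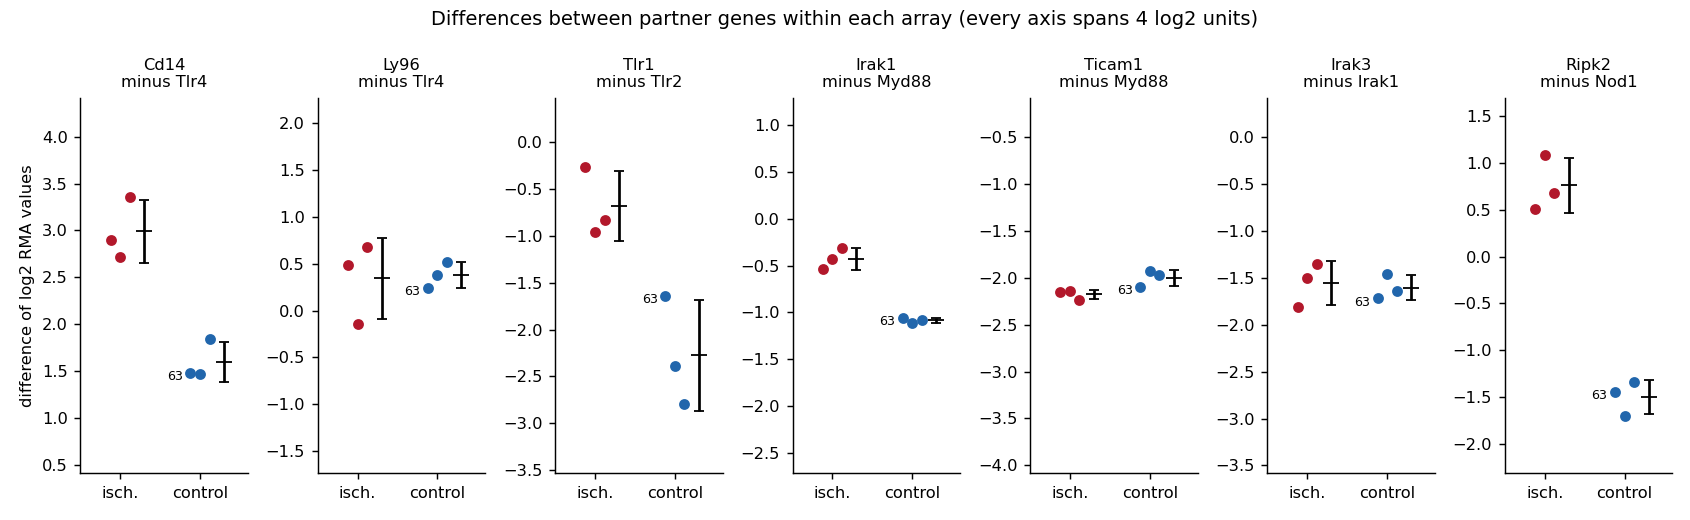
Differences between the log2 RMA values of 7 pairs of partner genes on the same array (vertical axes, each spanning 4 log2 units), in 3 ischemic rats (red) and 3 control rats (blue), with bars for the mean and SD (n = 3). *Ripk2* minus *Nod1* shows the largest difference between group means (2.26), while *Ly96* minus *Tlr4* and *Irak3* minus *Irak1* overlap.

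Promoter windows from RefSeq on rat build GRCr8 were read for the 7 genes of the family with an entry, over the 250 bases before the start given there. Of these 7 windows 4, those of *Tlr2*, *Tlr7*, *Cd14* and *Irak3*, overlap the annotated span of the gene itself. They are shown because *Irak1* and *Irak3*, a kinase and its inhibitor, were both higher in every ischemic rat. The motifs searched on both strands were the kappaB site of NF-kB, AP-1 (TGANTCA), the interferon-response motif ISRE, the hypoxia motif HRE (ACGTG), a PU.1 motif (GAGGAAGT) and CRE (TGACGTCA). The kappaB motif was found in *Tlr2* and *Irak3*, and in 3.54% of all 33469 windows. AP-1 and ISRE matches were found in *Myd88* (6.34% and 3.41% of all windows) and an HRE match in *Irak3* (16.6%), while PU.1 and CRE matches (2.04% and 1.59% of all windows) were found in none of the 7. The window of *Irak1*, at chrX:156929826-156930075 on the minus strand, held no match to any of the 6 motifs and is given whole in lower case:
Irak1: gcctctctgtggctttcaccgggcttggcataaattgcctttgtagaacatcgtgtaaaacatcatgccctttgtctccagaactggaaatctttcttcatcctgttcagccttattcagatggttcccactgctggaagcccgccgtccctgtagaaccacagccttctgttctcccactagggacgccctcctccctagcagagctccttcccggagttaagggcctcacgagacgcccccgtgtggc

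The kappaB matches are given as 30 bases each, with the matching bases in capitals. That of *Tlr2*, at chr2:171504743-171504772 on the minus strand, consists of 2 overlapping matches 206 to 196 bases before the start. That of *Irak3*, at chr7:57598646-57598675 on the minus strand, lies 34 to 25 bases before it. Both windows overlap the annotated span of their gene.
Tlr2: aggcccttgGGGGAATTCCCatacggagcc
Irak3: aggtctcgcaGGGGCATCCCtggggagagg
A match is a description of the letters and not a site of binding. Of this pair, *Irak3* was 0.85 higher after ischemia (adjusted p = 0.0116 from limma) and *Tlr2* was 0.15 higher (adjusted p = 0.471).

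The wider pathway was read through 8 lists of other genes. Among co-receptors and chaperones of TLRs none of 7 tested genes passed the test (median log2 fold change 0.029). The chaperone *Hsp90b1*, which folds TLRs in the endoplasmic reticulum, was at 0.64 (SE 0.18, adjusted p = 0.0222 from limma). Among 18 other adaptors and kinases 2 rose and 1 fell (median 0.028), beside 16.8% and 5.99% of all genes tested. *Traf3*, a ubiquitin ligase of the TRIF and interferon branch, rose by 1.18 (SE 0.21, adjusted p = 0.00396). *Chuk*, which encodes the IkB kinase subunit IKKα, rose by 0.76 (SE 0.12, adjusted p = 0.00241). *Peli2*, a ubiquitin ligase that acts on IRAK proteins, fell by 1.04 (SE 0.17, adjusted p = 0.00275). *Peli1*, a related ligase, was at 0.0045 (adjusted p = 0.987).

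Each of these 3 calls ended when single rats were left out. That of *Traf3* ended without control 63, control 69, ischemia 65 or ischemia 66, that of *Peli2* without control 68, control 69, ischemia 65 or ischemia 66, and that of *Chuk* without control 69 or ischemia 65. With ribosomal centring the calls of *Traf3* and *Chuk* also ended. That of *Traf3* ended as well when the mean of all probe sets of a gene was used.

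None of 6 tested NOD receptors and partners of RIPK2 passed the test (median 0.025). *Nod1* was at 10.42, 10.02 and 9.91 after ischemia and at 10.32, 10.80 and 10.96 in controls, giving -0.58 on the log2 scale (SE 0.21, adjusted p = 0.0546 from limma). *Xiap*, a ubiquitin ligase of RIPK2, was at -0.033 (adjusted p = 0.851). None of 9 tested inhibitors of the pathway passed the test (median 0.13), and *Tnfaip3*, the deubiquitinase A20, was at 0.061 (SE 0.21, adjusted p = 0.837). None of 5 interferon regulatory factors did (median -0.17), with *Irf3* at -0.24 (SE 0.14, adjusted p = 0.196). At an unadjusted p under 0.05, 6 of the 10 family members would have been counted, beside 50.5% of all genes tested.

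Of 12 genes that MyD88 and NF-kB are known to induce, 3 rose and none fell, with a median of 0.16. Over all genes tested 16.8% rose and 5.99% fell. *Il6*, a fever-inducing cytokine, was at 10.76, 10.33 and 9.93 after ischemia, against 5.17, 4.78 and 6.58 in controls. All 3 controls were below the low-signal limit of 7.16, so *Il6* entered the test through the ischemic arrays alone. The ischemic mean lay 3.183 log2 units above that limit. The fitted difference of 4.83 (SE 0.44, adjusted p = 0.00036 from limma) is set against controls of low signal and is not a measured size. The call was also made without the filter. *Ptgs2*, the inducible prostaglandin synthase, rose by 1.81 (SE 0.37, adjusted p = 0.00677) and *Sod2*, the mitochondrial superoxide dismutase, by 1.38 (SE 0.25, adjusted p = 0.00374).

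The other 9 target genes did not pass. The neutrophil chemokine *Cxcl2* was at 14.33, 14.03 and 14.06 after ischemia and at 13.46, 14.28 and 14.21 in controls, with overlap (0.16, SE 0.23, adjusted p = 0.601 from limma). The interleukin gene *Il1b* was at 0.15 (adjusted p = 0.493). The count was 1 without control 63, ischemia 65 or ischemia 66, and *Il6* was called without each rat in turn. The calls of *Ptgs2* and *Sod2* ended without control 63, ischemia 65 or ischemia 66, that of *Ptgs2* also without ischemia 64 and that of *Sod2* also without control 68. That of *Ptgs2* ended as well without the low-signal filter, with ribosomal centring, with repeated quantile normalization and with robust moderation. The median of the 12 genes was -0.27 with ribosomal centring.

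Of 9 tested genes downstream of TRIF and interferon, 3 fell and none rose, beside 5.99% and 16.8% of all genes tested. Their median log2 fold change was -0.63 beside 0.10 over all genes. *Ifit2*, an antiviral protein, was at 10.29, 9.34 and 9.51 after ischemia and at 10.80, 11.44 and 11.46 in controls, and fell by 1.52 (SE 0.28, adjusted p = 0.00415 from limma). The chemokine *Cxcl10* was at 10.17, 10.17 and 10.04 after ischemia and at 10.96, 11.12 and 11.84 in controls, and fell by 1.18 (SE 0.22, adjusted p = 0.00469). *Oasl*, an oligoadenylate synthetase-like protein, fell by 0.76 (SE 0.17, adjusted p = 0.00944), a call that ended without any 1 of the 6 rats. *Usp18*, which limits interferon signalling, was at -0.63 (SE 0.23, adjusted p = 0.0617). *Ifnb1*, the interferon gene itself, was too dim to test. The count was 0 without control 68, ischemia 65 or ischemia 66 and 2 without control 63, where *Ifit2* and *Cxcl10* fell. Without control 69 it was also 2, *Cxcl10* and *Usp18*, and the call of *Ifit2* ended. The count was 4 with ribosomal centring, with repeated quantile normalization and with array weights, among other settings. It was 2 with arrays centred on their medians or without the low-signal filter, where the call of *Oasl* ended. Without moderation it was 0.

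**Figure D4:**
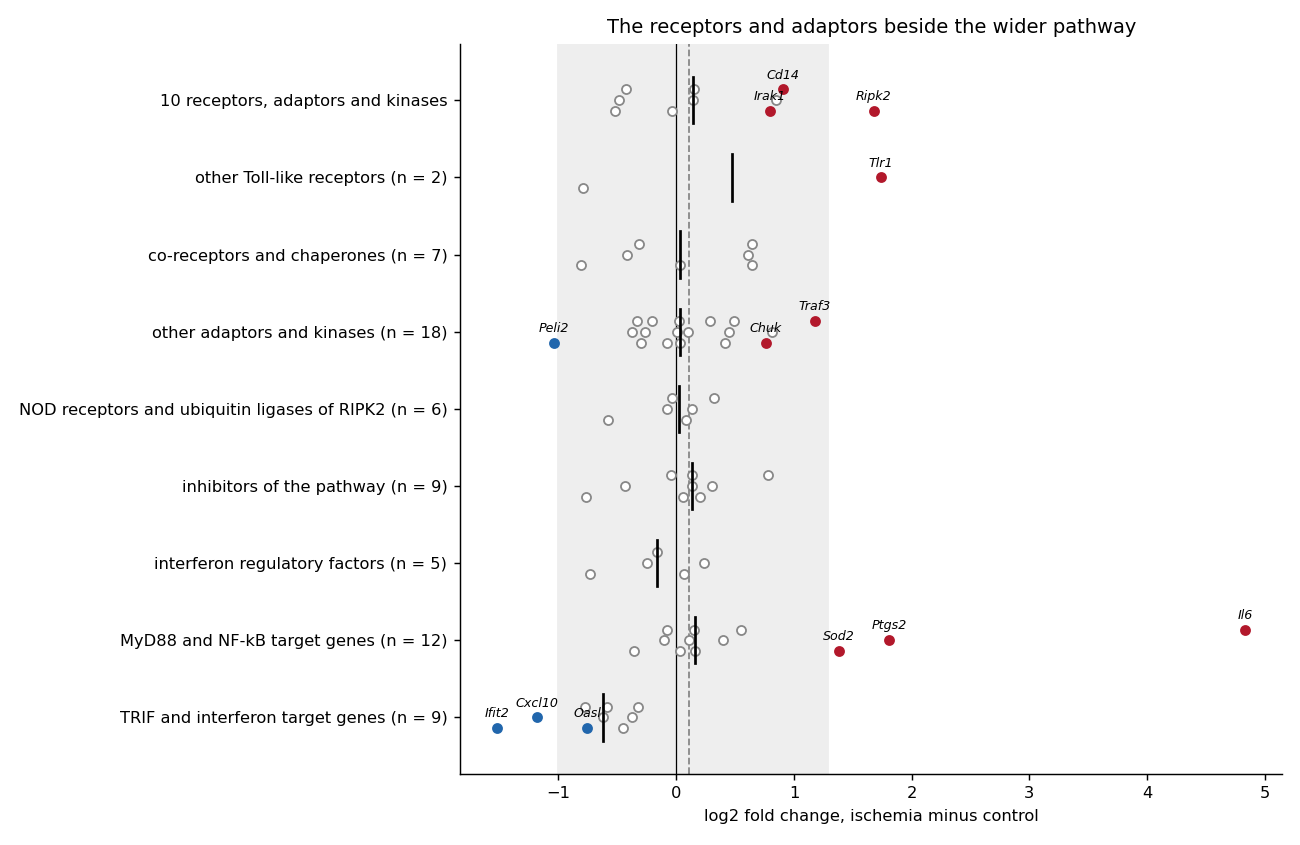
Log2 fold changes, ischemia minus control (horizontal axis), of the 10 genes and of 8 lists of the wider pathway. Filled points passed the test (red higher, blue lower), black ticks are list medians, the dashed line is the median of all genes (0.10) and the grey band spans the 5th to 95th percentile of all genes (-1.003 to 1.29). *Ripk2*, *Tlr1*, *Il6*, *Ptgs2* and *Sod2* lie beyond the band upwards, and *Peli2*, *Cxcl10* and *Ifit2* lie beyond it downwards.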

How the data were processed

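Sorted CD11b+CD163+ cells from 3 ischemic and 3 control rats were profiled on Affymetrix rat genome arrays after amplification with a 3′ in vitro transcription kit. The authors deposited log2 intensities from RMA, which corrects background, quantile-normalizes and summarizes probes. Their processing notes name limma 3.18 and R 3.3.1. The table held 31099 probe sets, of which 57 were controls, 20826 named 1 gene, 436 several and 9780 none. The brightest probe set stood for each gene. A gene entered the test when 3 arrays or more lay above 7.16, which is the 40th percentile once control probe sets are set aside. The 2 groups were compared two-sided in R 4.3.3 (limma 3.58.1, lmFit followed by eBayes) with Benjamini-Hochberg adjustment. The fit was checked on simulated data.

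The genes, lists and tests were chosen with earlier results of these data known, and lists received no test of their own. Genes named beyond the family are, per list, up to 3 past the test, by size of change, and the 1 of highest mean that was not. Further ones (*Nod1*, *Il1b*, *Ifnb1* and the cell type markers) were chosen after their values were seen. Profiles closest to a gene were named only for the member with the largest change past the test. Summed levels are log2 of the summed linear values of a marker list. Some genes of the lists are not analysed here. Precision rests on the number of rats, since arrays have no depth in reads. Alternatives covered filters, probe sets, scaling, moderation, weights, threshold and leaving out each rat, and differences between partner genes were added after seeing the data.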

Additional observations from a re-analysis of the deposited data

How the results depend on the processing

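Ribosomal centring moved the median log2 fold change of all genes to -0.32, from 0.10 as deposited, and the share of rises among calls to 22.6% from 73.7%, with 60.1% after repeated quantile normalization. With ribosomal centring 397 genes rose and 1360 fell, and in the family 1 rose and 1 fell, against 3 and 0. *Tlr2* was then at -0.28 and *Myd88* at -0.29, close to that median, and after repeated quantile normalization, where 927 genes fell and 1 family member fell, they were at -0.030 and -0.012. Array weights gave 2374 rises and 1309 falls over all 9928 genes, 1 of the falls in the family, and 6 probe sets of the family past the test. At an adjusted p under 0.05, 2722 genes rose and 1377 fell, with 1 fall in the family and 6 of its probe sets past the test. Shares over all probe sets were computed only for the fit over 14083 probe sets given above. Counts of family probe sets in other settings are therefore not read as particular to the family. Without moderation limma called 0 genes, 0 in the family and 0 of its probe sets (4478 genes had an unadjusted p under 0.05, 5 of them in the family).

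Without each rat in turn, rises numbered 681 to 1564 and falls 166 to 816 over all genes. In the family, rises numbered 1 to 4, falls 0, and probe sets past the test 1 to 4. *Ticam1* ranged from -0.20 to 0.081 and so changed sign. The other 7 genes of the family kept their direction under all 18 settings. The low-variability filter left out *Tlr2* and *Myd88*. No paired analysis was possible because the labels pair no ischemic rat with a control. The causes of these differences were not tested, and 3 rats per group limit every call.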
